A study of Homo sapiens with 6 samples.

Results

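The genes described here are 39 named genes of the unfolded protein response and of its ATF4 arm, out of 23368 gene symbols measured. They were listed by symbol for their known roles, but with earlier results of these data known, and all 39 were found in the count table. Shares of members called, set beside those of all tested genes, are therefore descriptions only. They fall into 14 chaperones and folding enzymes of the endoplasmic reticulum (ER), 5 stress sensors and transcription factors, 4 genes of ER-associated degradation, 8 regulators of the ATF4 arm and 8 genes of amino acid synthesis and transport. RNA was sequenced from MDA-MB231, an established human cell line of triple-negative breast cancer, after transfection with siL2 (2 libraries) or siL1 (2 libraries), which are different siRNAs against LSD1, or with a control siRNA (siControl, 2 libraries). LSD1, encoded by KDM1A, is a demethylase that removes methyl groups from histone lysines. All 3 groups were grown in DMEM with fetal calf serum and transfected with the same lipid reagent, so the controls share the transfection. The siRNA sequences, their doses and the time of harvest were not given in the sources used here, and nothing says that the 2 libraries of a group came from separate cultures. The p-values therefore measure only the spread between these libraries, which may be technical.

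Cells use the unfolded protein response to match the folding capacity of the ER to the load of new proteins. The sensors ATF6, IRE1 (gene ERN1) and PERK (gene EIF2AK3) sit in the ER membrane and are held inactive by the chaperone BiP (gene HSPA5). Activated ATF6, and the XBP1 protein made after IRE1 splices the XBP1 transcript, switch on chaperone and degradation genes. PERK phosphorylates the initiation factor eIF2, which lowers general translation but favours translation of ATF4, and ATF4 then induces amino acid transporters, biosynthetic enzymes and regulators such as CHOP (gene DDIT3). Much of this control acts on splicing, cleavage, phosphorylation and translation, which counts per gene do not measure.

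Library totals ranged from 22047738 to 26765079 counts and 15624 to 16065 genes had at least 1 count. Levels are CPM, counts per 1000000 counts of the library, and 3 counts, the limit that a count of 0 allows, equalled 0.112 to 0.136 CPM. Changes are log2 fold changes from edgeR's quasi-likelihood test over 13322 tested genes, and a gene was called where its Benjamini-Hochberg adjusted p was under 0.05. KDM1A had 17.4 and 18.1 CPM in siL2 libraries, 27.7 and 28.1 CPM in siL1 libraries, and 158 and 165 CPM in siControl libraries (log2 fold change -3.19 with siL2, adjusted p = 2.16e-12, and -2.53 with siL1, adjusted p = 1.09e-11). All 8 markers of the line, among them VIM and CD44, were expressed, with summed levels of 7765 to 7787 CPM in siL2, 7249 to 7273 CPM in siL1 and 7299 to 7472 CPM in siControl libraries. The luminal markers ESR1, PGR, KRT19 and CDH1 were under 1 CPM, while ERBB2, EPCAM, GATA3 and FOXA1 were above it. The 8 luminal markers summed to 61.9 to 67.4 CPM in siL2, 72.8 to 79.0 CPM in siL1 and 74.5 to 78.6 CPM in siControl libraries. Of the 4 tested, with siL2 1 rose and 2 fell, and with siL1 1 rose and 1 fell. GATA3 rose by 0.46 on the log2 scale with siL2 and 0.96 with siL1, while FOXA1 changed by -1.22 and -0.72. Of 12 blood cell markers 11 were under 1 CPM, with MS4A1, HBB and HBA1 among those at 0. CD68 had 268 and 272 CPM in siL2, 223 and 206 CPM in siL1 and 213 and 223 CPM in siControl libraries. It rose with siL2 (log2 fold change 0.31, adjusted p = 8.31e-05). The 12 fibroblast and endothelial markers summed to 16.7 to 18.7 CPM in siL2, 26.2 to 27.7 CPM in siL1 and 10.6 to 11.8 CPM in siControl libraries, with DCN and LUM at 0. Of the 7 tested, 3 rose with siL2 and 4 with siL1, and 0 fell. PDGFRB averaged 3.73 CPM in siL2, 7.19 CPM in siL1 and 0.830 CPM in siControl libraries (log2 fold change 2.16 with siL2, adjusted p = 8.57e-06, and 3.11 with siL1, adjusted p = 1.21e-07). COL1A1 rose by 0.56 with siL2 and 1.05 with siL1, and KDR by 0.64 and 1.31. The part of these markers in the results below was not tested. In RNA from bulk cells, a change in the share of cells that express a gene and a change in RNA per cell cannot be told apart.

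Promoter sequences were searched for exact copies of the elements through which the response acts. RefSeq promoters on build GRCh38.p14, from 250 bases before to 50 after each gene start, were matched for 36 of the 39 members by symbol (PDIA3, PSPH and SHMT2 were not matched). The 4 elements were searched on both strands with no mismatch, so a site with a mismatch or outside the window was missed. Members were listed for their known roles in this response, so a share above that of all symbols is not independent evidence. The ER stress response element (ERSE, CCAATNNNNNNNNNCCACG) was in the promoters of 7 members, HSPA5, HSP90B1, CALR, CANX, PDIA6, CRELD2 and XBP1, against 0.0916% of all 27305 gene symbols with a promoter. Its other form (ERSE-II, ATTGGNCCACG) was in 3 members, HYOU1, SDF2L1 and HERPUD1, against 0.0696% of these symbols. The unfolded protein response element (UPRE, TGACGTGG) was in HYOU1, where it overlaps an ERSE-II, against 0.927% of symbols. The amino acid response element of ATF4 and CEBP factors (CARE, TGATGNAA) was in 6 members, CREB3L2, HERPUD1, CHAC1, ASNS, SLC3A2 and SLC7A1, against 4.46% of symbols. The 250 bases before the start of HSPA5 (chr9:125241344-125241593, minus strand) are shown whole because BiP is the usual readout of the response, and the capitals mark its exact ERSE.
HSPA5: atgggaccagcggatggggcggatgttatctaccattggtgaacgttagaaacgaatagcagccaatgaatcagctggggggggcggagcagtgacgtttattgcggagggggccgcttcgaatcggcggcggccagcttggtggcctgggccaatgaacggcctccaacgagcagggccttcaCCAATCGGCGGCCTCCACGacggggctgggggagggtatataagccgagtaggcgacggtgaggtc

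Short windows from other members let the elements be compared with the expression results that follow, again with the element in capitals. They come from XBP1 (chr22:28800592-28800632, minus strand), CALR (chr19:12938373-12938413, plus strand), CRELD2 (chr22:49918543-49918583, plus strand), HYOU1 (chr11:119057263-119057295, minus strand), HERPUD1 (chr16:56932014-56932046, plus strand), ASNS (chr7:97872458-97872487, minus strand) and CHAC1 (chr15:40953251-40953280, plus strand). In CALR, CRELD2, HYOU1 and CHAC1 the element lies on the strand opposite to the gene, so that its reverse complement is seen.
XBP1 ERSE: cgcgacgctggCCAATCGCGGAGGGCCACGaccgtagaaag
CALR ERSE: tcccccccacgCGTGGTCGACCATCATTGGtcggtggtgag
CRELD2 ERSE: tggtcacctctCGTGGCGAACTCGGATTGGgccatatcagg
HYOU1 ERSE-II: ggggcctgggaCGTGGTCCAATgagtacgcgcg
HERPUD1 ERSE-II: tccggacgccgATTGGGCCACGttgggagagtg
ASNS CARE: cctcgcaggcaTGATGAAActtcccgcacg
CHAC1 CARE: ctcccctgccgTTGCATCActcctgccagg

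**Figure D1:**
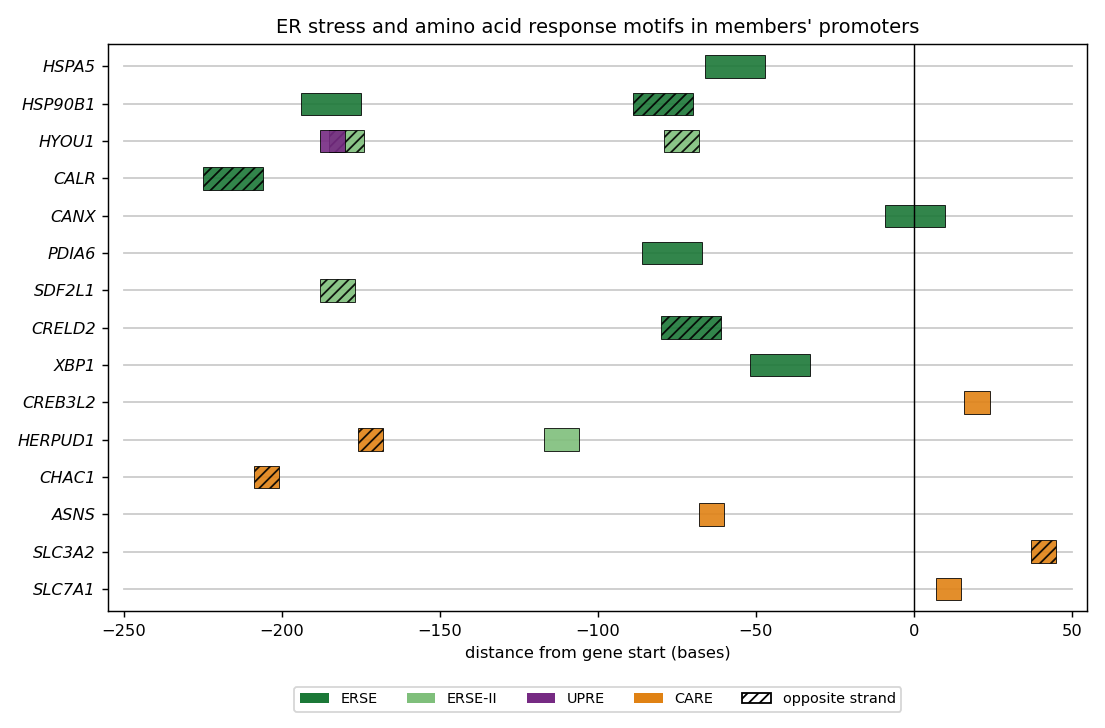
Positions of the 4 elements in the promoters of the 15 members that hold at least 1, as distance in bases from the gene start (x axis), with 1 line per gene. Box colour gives the element and hatching marks the strand opposite to the gene; boxes of UPRE and ERSE-II overlap in HYOU1.

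With siL2, 23 of 38 tested members were called (60.5%; 8 higher and 15 lower), against 45.8% of all tested genes (22.6% higher and 23.3% lower). With siL1, 24 members were called (63.2%; 17 higher and 7 lower), against 50.4% of all tested genes (24.7% higher and 25.7% lower). The median log2 fold change of the members was -0.09 with siL2 and 0.12 with siL1, where that of all tested genes was 0.00 and -0.01. Most changes were small: 4 of 38 members with siL2 and 6 of 38 with siL1 were called with a log2 change of at least 0.5 in size, against 13.9% and 16.8% of all tested genes. The median size of the members' log2 changes, whatever their direction, was 0.161 with siL2 and 0.196 with siL1. That of all tested genes was larger, at 0.212 and 0.236. The 2 comparisons share the siControl libraries. Beside each other, 8 members were higher with both siRNAs, 5 were lower with both, 4 were lower with siL2 and higher with siL1, and 8 were called with neither. The share of all tested genes in each of these classes was not counted. Whether the classes are unusually common among members was therefore not tested. Without siL2 replicate 2, 5 members were higher with siL2.

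**Figure D2:**
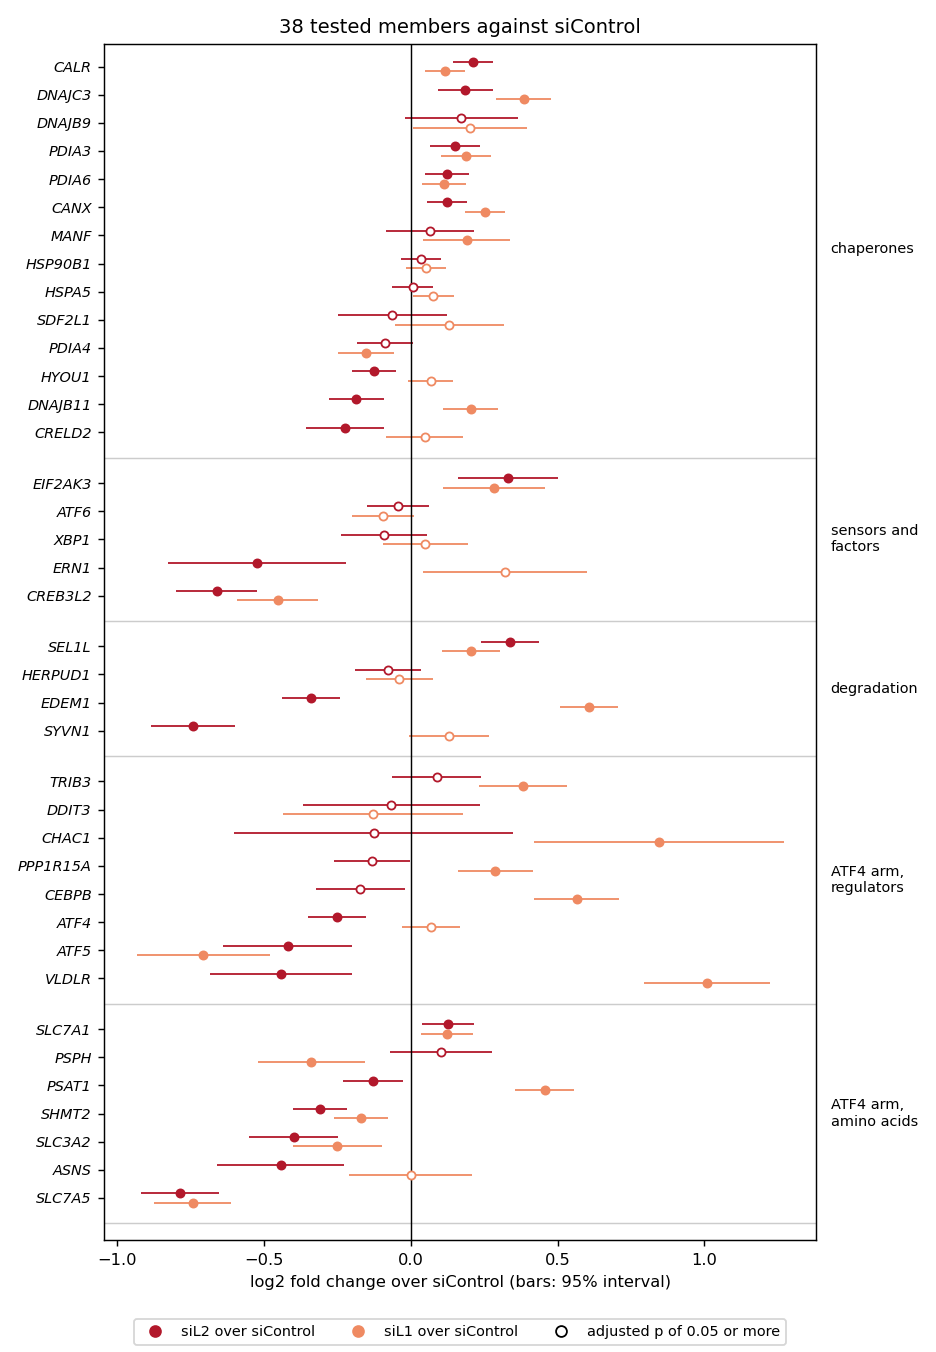
Log2 fold change over siControl with its 95% interval (x axis) for the 38 tested members, by role, with siL2 above siL1 for each gene; open points had an adjusted p of 0.05 or more. The chaperones lie close to 0 and the ATF4 regulators spread widest with siL1, where VLDLR reached 1.01.

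The chaperones changed little. Of 14, with siL2 5 rose and 3 fell (57.1% called, against 45.8% of all tested genes). With siL1 7 rose and 1 fell (57.1%, against 50.4%). None reached a log2 change of 0.5, and the largest was that of DNAJC3 with siL1. HSPA5, the central ER chaperone BiP, had 599 and 583 CPM in siL2 libraries, 621 and 613 CPM in siL1 libraries, and 583 and 592 CPM in siControl libraries. The siL2 libraries overlapped the siControl libraries, while both siL1 libraries were above them. HSPA5 was not called with siL2 (log2 fold change 0.01, 95% interval -0.06 to 0.08, adjusted p = 0.895) or with siL1 (0.08, 0.01 to 0.15, adjusted p = 0.0653). The siL1 value passed the threshold in 3 of 14 alternatives, among them both other scalings, its adjusted p ranging from 0.00678 to 0.226. HSP90B1, the ER form of HSP90, was not called either (0.04, -0.03 to 0.10, with siL2 and 0.05, -0.01 to 0.12, with siL1).

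The lectin chaperones and the disulfide isomerases were higher with both siRNAs in 4 of 5 cases, while the share of all tested genes higher with both was not counted. CALR, which binds glycoproteins in the ER lumen, averaged 856 ± 16.2 CPM in siL2, 796 ± 16.7 CPM in siL1 and 736 ± 3.28 CPM in siControl libraries (SD, n = 2 each; log2 fold change 0.21 with siL2, adjusted p = 0.000128, and 0.12 with siL1, adjusted p = 0.00787). CANX, its partner in the ER membrane, averaged 2134 ± 36.5 CPM in siL2, 2320 ± 60.4 CPM in siL1 and 1955 ± 9.65 CPM in siControl libraries (0.12 with siL2, adjusted p = 0.00633, and 0.25 with siL1, adjusted p = 2.72e-05). Both genes were higher in every library of either siRNA than in either siControl library. The disulfide isomerase PDIA6 rose by 0.12 on the log2 scale with siL2 and by 0.11 with siL1, and PDIA3 by 0.15 and 0.19. PDIA3 is uncertain, because the pseudogene row PDIA3P held 167 to 170 CPM in siL2, 168 to 177 CPM in siL1 and 149 to 150 CPM in siControl libraries, close to the 198 to 231 CPM of PDIA3 itself, and the 2 can share reads. PDIA4 was called lower with siL1 (-0.15, adjusted p = 0.0123) and not with siL2 (-0.09, adjusted p = 0.129). These small changes sat near the threshold: leaving out 1 library at a time, PDIA6 lost its call in 3 runs with siL1 (adjusted p 0.0511 to 0.0689) and in 1 with siL2 (0.0594), PDIA4 in 2 (0.0607 to 0.122), CALR in 1 with siL1 (0.062), and CANX and PDIA3 in 1 each with siL2 (0.0642 and 0.0561).

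Of the J-domain cochaperones, which deliver clients to BiP, 1 rose and 1 fell with siL2, and 2 rose with siL1. Among all tested genes 22.6% were called higher and 23.3% lower with siL2, and 24.7% higher with siL1. DNAJC3, which also inhibits PERK, averaged 107 ± 0.0967 CPM in siL2, 122 ± 3.29 CPM in siL1 and 93.8 ± 0.800 CPM in siControl libraries (log2 fold change 0.19 with siL2, adjusted p = 0.00349, and 0.38 with siL1, adjusted p = 1.10e-05; SD, n = 2 each). DNAJB11 had 90.3 and 89.5 CPM in siL2 libraries, 118 and 116 CPM in siL1 libraries, and 103 and 101 CPM in siControl libraries. It therefore fell with siL2 (-0.19, SE 0.0432, adjusted p = 0.00345) and rose with siL1 (0.20, SE 0.0426, adjusted p = 0.00149). DNAJB9 was not called with siL2 (0.17, adjusted p = 0.134) or siL1 (0.20, adjusted p = 0.0784). Of the other secreted or ER-resident stress genes, CRELD2 fell with siL2 (-0.22, adjusted p = 0.00967) and HYOU1, an exchange factor for BiP, fell with siL2 (-0.13, adjusted p = 0.0102), while MANF rose with siL1 (0.19, adjusted p = 0.0341). SDF2L1 was called with neither siRNA. Leaving out 1 library at a time, CRELD2 lost its call in 2 runs (adjusted p 0.0564 to 0.0586), HYOU1 in 3 (0.0527 to 0.0645) and MANF in 3 (0.0525 to 0.393, the highest without siL1 replicate 1). Without siL1 replicate 1, 4 chaperones rose with siL1; without siL2 replicate 2, 3 rose with siL2, and without siL2 replicate 1, 1 fell.

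The sensor genes behaved differently from each other. ATF6, the sensor that is cut in the Golgi to release a transcription factor, had 86.1 and 90.6 CPM in siL2 libraries, 83.8 and 85.5 CPM in siL1 libraries, and 89.3 and 92.2 CPM in siControl libraries, and was called in neither comparison (log2 fold change -0.04, 95% interval -0.15 to 0.06, with siL2 and -0.09, -0.20 to 0.01, with siL1). XBP1 had 77.5 and 71.7 CPM in siL2 libraries, 87.2 and 76.4 CPM in siL1 libraries, and 82.7 and 75.9 CPM in siControl libraries. All 3 groups overlapped for XBP1, and it was not called (-0.09, -0.24 to 0.05, with siL2 and 0.05, -0.10 to 0.19, with siL1). The counts do not separate its spliced and unspliced transcripts.

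EIF2AK3, the PERK kinase, had 26.9 and 29.8 CPM in siL2 libraries, 28.2 and 26.4 CPM in siL1 libraries, and 23.1 and 21.9 CPM in siControl libraries. Every siRNA library was above both siControl libraries, and EIF2AK3 rose with siL2 (0.33, SE 0.0788, adjusted p = 0.00406) and with siL1 (0.28, SE 0.0796, adjusted p = 0.00984). The call with siL1 was lost without siControl replicate 2 or without siL1 replicate 1 (adjusted p 0.072 and 0.0728), which left 0 sensor genes higher with siL1. ERN1, the IRE1 kinase and ribonuclease, was expressed at a low level, with 3.92 and 4.02 CPM in siL2 libraries, 6.89 and 7.30 CPM in siL1 libraries, and 5.94 and 5.46 CPM in siControl libraries. The groups did not overlap. ERN1 fell with siL2 (-0.52, SE 0.140, adjusted p = 0.00800), though not past the threshold without siControl replicate 1 (-0.46, adjusted p = 0.0539) or with the DESeq2 test. With siL1 it was not called (0.32, SE 0.129, adjusted p = 0.0530), and it passed in 4 of 14 alternatives, its adjusted p ranging from 0.0243 to 0.238.

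CREB3L2, a membrane-bound transcription factor related to ATF6 that drives genes of the secretory pathway, had 68.6 and 61.7 CPM in siL2 libraries, 77.4 and 72.3 CPM in siL1 libraries, and 108 and 97.6 CPM in siControl libraries. No library of either siRNA reached the siControl level. It fell with siL2 (-0.66, SE 0.0638, adjusted p = 3.43e-06) and with siL1 (-0.45, SE 0.0634, adjusted p = 7.04e-05).

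Genes of ER-associated degradation, which sends misfolded proteins to the proteasome, included EDEM1 and SYVN1, which differed between the siRNAs. EDEM1, a lectin that picks out misfolded glycoproteins, had 229 and 210 CPM in siL2 libraries, 410 and 431 CPM in siL1 libraries, and 280 and 274 CPM in siControl libraries. The 3 groups were apart, with siL1 highest and siL2 lowest. EDEM1 fell with siL2 (log2 fold change -0.34, SE 0.0458, adjusted p = 5.85e-05) and rose with siL1 (0.61, SE 0.0452, adjusted p = 3.10e-07). SYVN1, the ubiquitin ligase HRD1, had 39.4 and 34.4 CPM in siL2 libraries, 68.4 and 66.0 CPM in siL1 libraries, and 62.5 and 60.5 CPM in siControl libraries. It fell with siL2 (-0.74, SE 0.0659, adjusted p = 1.71e-06) and was not called with siL1 (0.13, SE 0.0628, adjusted p = 0.101). SYVN1 is uncertain, because its exons overlap those of MRPL49 on the other strand, MRPL49 itself fell by 1.28 on the log2 scale with siL2 (adjusted p = 1.08e-09), and no source used here says whether counting used strand. SEL1L, the adaptor that holds the HRD1 complex together, averaged 199 ± 2.39 CPM in siL2, 180 ± 4.12 CPM in siL1 and 157 ± 9.30 CPM in siControl libraries (SD, n = 2 each), and rose with siL2 (0.34, adjusted p = 6.00e-05) and with siL1 (0.20, adjusted p = 0.00238). HERPUD1, a membrane protein of the HRD1 complex that carries both ERSE-II and CARE in its promoter, was not called with siL2 (-0.08, adjusted p = 0.254) or siL1 (-0.04, adjusted p = 0.568).

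Of the 8 regulators of the ATF4 arm, with siL2 0 rose and 3 fell (37.5% called, against 45.8% of all tested genes). With siL1 5 rose and 1 fell (75%, against 50.4%). ATF4 itself, the transcription factor of the arm, had 139 and 149 CPM in siL2 libraries, 178 and 180 CPM in siL1 libraries, and 167 and 175 CPM in siControl libraries. The siL2 libraries were below all others, and ATF4 fell with siL2 (log2 fold change -0.25, SE 0.0454, adjusted p = 0.000575) and was not called with siL1 (0.07, SE 0.0450, adjusted p = 0.226). DDIT3, the pro-apoptotic factor CHOP, had 7.70 and 7.79 CPM in siL2 libraries, 6.93 and 7.79 CPM in siL1 libraries, and 6.99 and 9.14 CPM in siControl libraries. The groups overlapped and DDIT3 was not called (-0.07, 95% interval -0.37 to 0.23, with siL2 and -0.13, -0.44 to 0.18, with siL1). Exons of DDIT3 also overlap a gene on the other strand, MARS, at 151 to 170 CPM.

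VLDLR, a lipoprotein receptor induced by PERK and ATF4, had 8.52 and 7.51 CPM in siL2 libraries, 22.5 and 21.1 CPM in siL1 libraries, and 11.5 and 10.3 CPM in siControl libraries. The groups were apart, and this was the largest change of any member. VLDLR fell with siL2 (-0.44, SE 0.111, adjusted p = 0.00570) and rose with siL1 (1.01, SE 0.0984, adjusted p = 3.32e-06). The fall with siL2 narrowly missed the threshold without siControl replicate 1 (-0.36, adjusted p = 0.0515). CHAC1, an enzyme that degrades glutathione and a sensitive ATF4 target, was low, with 1.57 and 2.15 CPM in siL2 libraries, 3.66 and 3.57 CPM in siL1 libraries, and 2.00 and 2.03 CPM in siControl libraries. The siL2 libraries lay on either side of the siControl libraries, and CHAC1 rose with siL1 (0.85, SE 0.196, adjusted p = 0.00297) and was not called with siL2 (-0.13, SE 0.219, adjusted p = 0.671).

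CEBPB, a bZIP factor that pairs with ATF4, had 25.3 and 25.5 CPM in siL2 libraries, 41.3 and 42.8 CPM in siL1 libraries, and 29.6 and 27.5 CPM in siControl libraries. It rose with siL1 (0.57, SE 0.0668, adjusted p = 1.68e-05); with siL2 its libraries were below the siControl libraries without a call (-0.17, SE 0.0698, adjusted p = 0.0622). TRIB3, a pseudokinase that restrains ATF4, rose with siL1 (0.38, adjusted p = 0.000519) and was not called with siL2 (0.09, adjusted p = 0.326). PPP1R15A, the phosphatase subunit GADD34 that reverses eIF2 phosphorylation, had 128 and 138 CPM in siL2 libraries, 168 and 184 CPM in siL1 libraries, and 138 and 152 CPM in siControl libraries, and rose with siL1 (0.29, adjusted p = 0.00135) without a call with siL2 (-0.13, adjusted p = 0.0910). PPP1R15A was called lower with siL2 in 4 of 14 alternatives, among them those with no filter (adjusted p = 0.0252), without siControl replicate 1 (0.0288) and without siL2 replicate 2 (0.0376). ATF5, another bZIP factor of the arm, went the other way, with 28.99 and 34.17 CPM in siL2 libraries, 23.5 and 27.8 CPM in siL1 libraries, and 38.6 and 45.4 CPM in siControl libraries. It fell with siL2 (-0.42, SE 0.101, adjusted p = 0.00445; -0.30 and adjusted p = 0.0552 without siControl replicate 2) and with siL1 (-0.71, SE 0.105, adjusted p = 0.000109). ATF5 is uncertain in the same way as SYVN1: NUP62, on the other strand, fell by 0.18 with siL2 and by 0.43 with siL1.

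**Figure D3:**
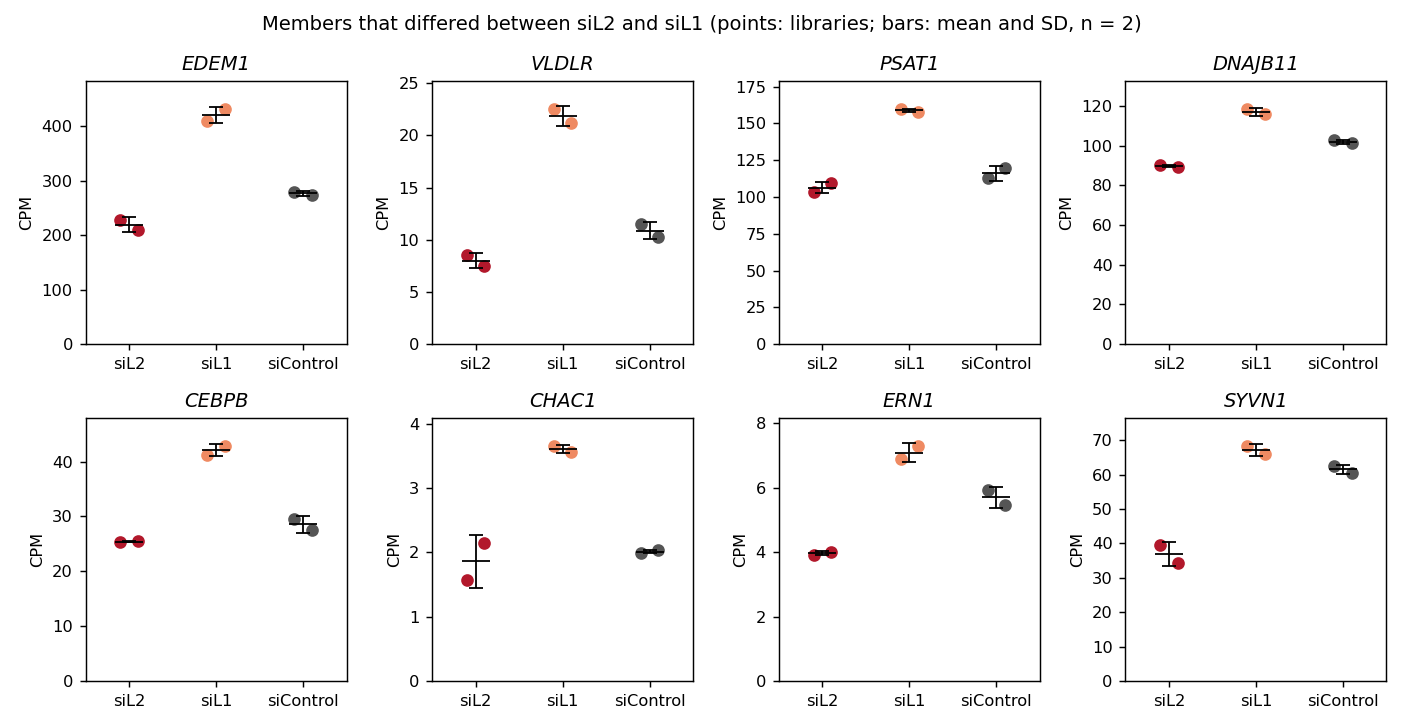
CPM per library (y axis, from 0) of 8 members that differed between siL2 and siL1, by group, with each group's mean and SD (n = 2). EDEM1, VLDLR, PSAT1 and DNAJB11 lie above siControl with siL1 and below it with siL2, while SYVN1 and ERN1 drop furthest with siL2.

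Amino acid genes mostly fell. Of the 7 tested, 1 rose and 5 fell with siL2 (85.7% called, against 45.8% of all tested genes). With siL1 2 rose and 4 fell (85.7%, against 50.4%). SLC7A5, the LAT1 transporter that imports leucine and other large neutral amino acids, had 227 and 249 CPM in siL2 libraries, 232 and 255 CPM in siL1 libraries, and 389 and 429 CPM in siControl libraries. Its level with either siRNA was well below both siControl libraries, and it fell with siL2 (log2 fold change -0.79, SE 0.0608, adjusted p = 4.83e-07) and with siL1 (-0.74, SE 0.0608, adjusted p = 7.14e-07). The pseudogene rows SLC7A5P1 and SLC7A5P2 reached at most 1.23 CPM. SLC3A2, the heavy chain that carries LAT1 to the cell surface, averaged 135 ± 6.99 CPM in siL2, 148 ± 16.7 CPM in siL1 and 177 ± 11.1 CPM in siControl libraries (SD, n = 2 each), and fell with siL2 (-0.40, adjusted p = 0.000484) and siL1 (-0.25, adjusted p = 0.00986). With siL1 the SLC3A2 call was lost without siControl replicate 2 (adjusted p = 0.0784) or siL1 replicate 1 (0.115). SLC7A1, the transporter of arginine and lysine, rose by 0.13 with siL2 (adjusted p = 0.0224) and by 0.12 with siL1 (adjusted p = 0.0226), and each of these calls was lost in 2 leave-one-out runs (adjusted p 0.0931 to 0.238).

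Of the 4 enzymes tested, 3 fell with siL2, and 1 rose and 2 fell with siL1. Of all tested genes, 23.3% were called lower with siL2, and 24.7% higher and 25.7% lower with siL1. SHMT2, the mitochondrial enzyme that turns serine into glycine, fell with siL2 (-0.31, adjusted p = 7.03e-05) and siL1 (-0.17, adjusted p = 0.00499). PSAT1, of the serine synthesis pathway, had 104 and 109 CPM in siL2 libraries, 160 and 158 CPM in siL1 libraries, and 113 and 120 CPM in siControl libraries. It rose with siL1 (0.46, SE 0.0462, adjusted p = 4.59e-06) and was called lower with siL2 (-0.13, SE 0.0470, adjusted p = 0.0389), although that call was lost in 7 of 14 alternatives, including the runs without siControl replicate 2, siL1 replicate 1 or siL2 replicate 1 (adjusted p 0.0503 to 0.278). PSPH, the last enzyme of that pathway, fell with siL1 (-0.34, adjusted p = 0.00455) and was not called with siL2 (0.10, adjusted p = 0.316). PHGDH, its first enzyme, had 2 counts in siL2 replicate 2 (0.0812 CPM) and 0 in the other 5 libraries, under the limit of 3 counts, and was the 1 member not tested. ASNS, asparagine synthetase, averaged 17.7 ± 0.681 CPM in siL2, 23.9 ± 1.43 CPM in siL1 and 24.0 ± 3.41 CPM in siControl libraries (SD, n = 2 each), and fell with siL2 (-0.44, adjusted p = 0.00280) without a call with siL1 (adjusted p = 0.997).

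**Figure D4:**
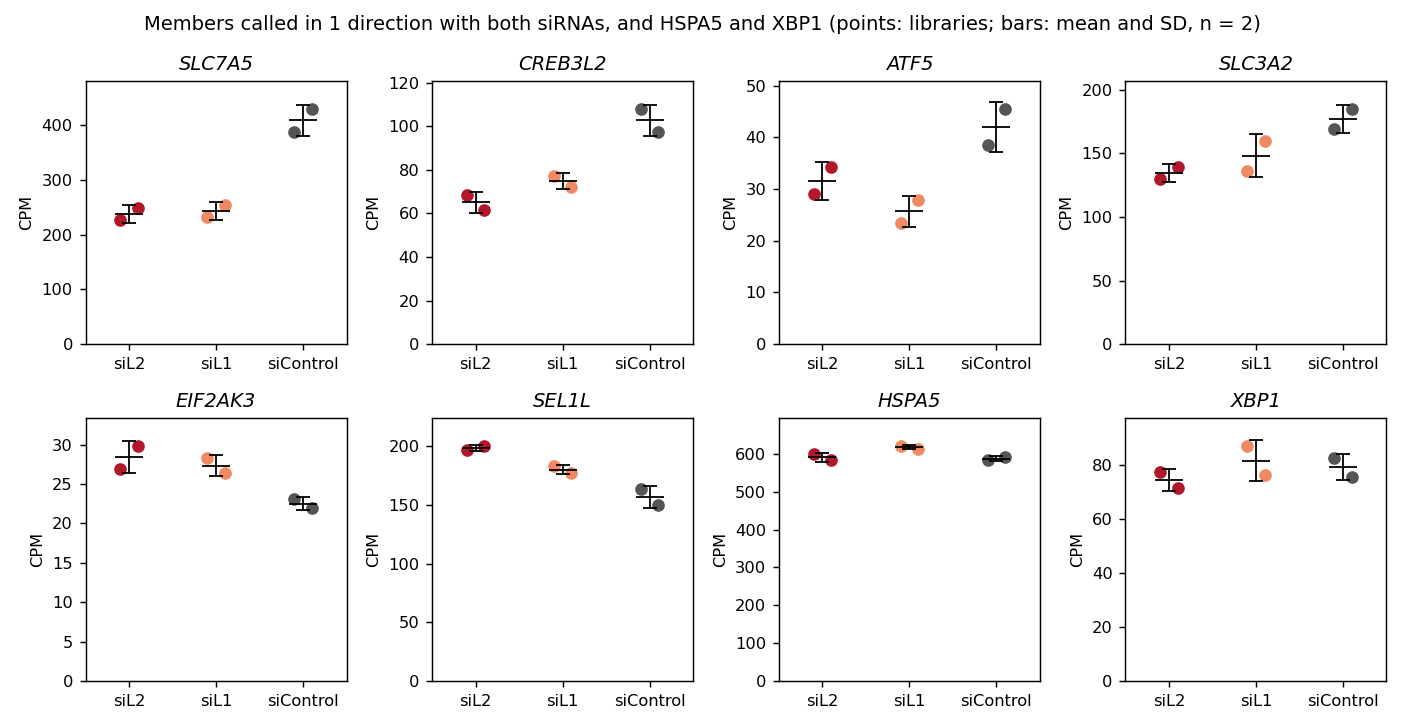
CPM per library (y axis, from 0) of 6 members called in 1 direction with both siRNAs and of HSPA5 and XBP1, by group, with each group's mean and SD (n = 2). SLC7A5, CREB3L2, ATF5 and SLC3A2 lie below siControl, EIF2AK3 and SEL1L above it, and HSPA5 and XBP1 close to it.

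Set against each other directly, siL2 gave lower levels than siL1 for most members that differed. In that test 22 of 38 members were called (57.9%; 4 higher and 18 lower), against 46.8% of all tested genes (23.2% higher and 23.7% lower), and the median was -0.14 where that of all tested genes was 0.00. A log2 difference of at least 0.5 in size was called for 7 members, all lower, against 14.9% of all tested genes. These were VLDLR (log2 difference -1.45, SE 0.101, adjusted p = 2.05e-07), CHAC1 (-0.97, adjusted p = 0.00123), EDEM1 (-0.95, SE 0.0455, adjusted p = 1.08e-08), SYVN1 (-0.87, adjusted p = 3.85e-07), ERN1 (-0.85, adjusted p = 0.000219), CEBPB (-0.74, adjusted p = 2.19e-06) and PSAT1 (-0.59, SE 0.0462, adjusted p = 6.26e-07). For all 7 the libraries of the 2 siRNAs did not overlap, and the same held for 29 of the 38 tested members in all. With 2 libraries a group, this adds little to a call of that size. The share of all tested genes whose libraries were apart in this way was not counted, so the number is a description only. DNAJB11 (-0.39, adjusted p = 1.11e-05), ATF4 (-0.32, adjusted p = 8.91e-05), PPP1R15A (-0.42, adjusted p = 9.02e-05), TRIB3 (-0.29, adjusted p = 0.00329) and ASNS (-0.44, adjusted p = 0.00274) were also lower with siL2. The 4 that were higher were PSPH (0.44, adjusted p = 0.000708), ATF5 (0.29), SEL1L (0.13) and CALR (0.10). Of these, PSPH alone was called with the DESeq2 test, and with 1 library of either siRNA left out 1 to 2 members were higher. The difference was not called for SLC7A5 (-0.04, 95% interval -0.18 to 0.09), EIF2AK3 (0.05, -0.12 to 0.21) or SLC7A1 (0.00, -0.09 to 0.09). The 2 siRNAs also left different levels of KDM1A, lower with siL2 by 0.66 on the log2 scale (adjusted p = 4.36e-06); its part in these differences was not tested.

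**Figure D5:**
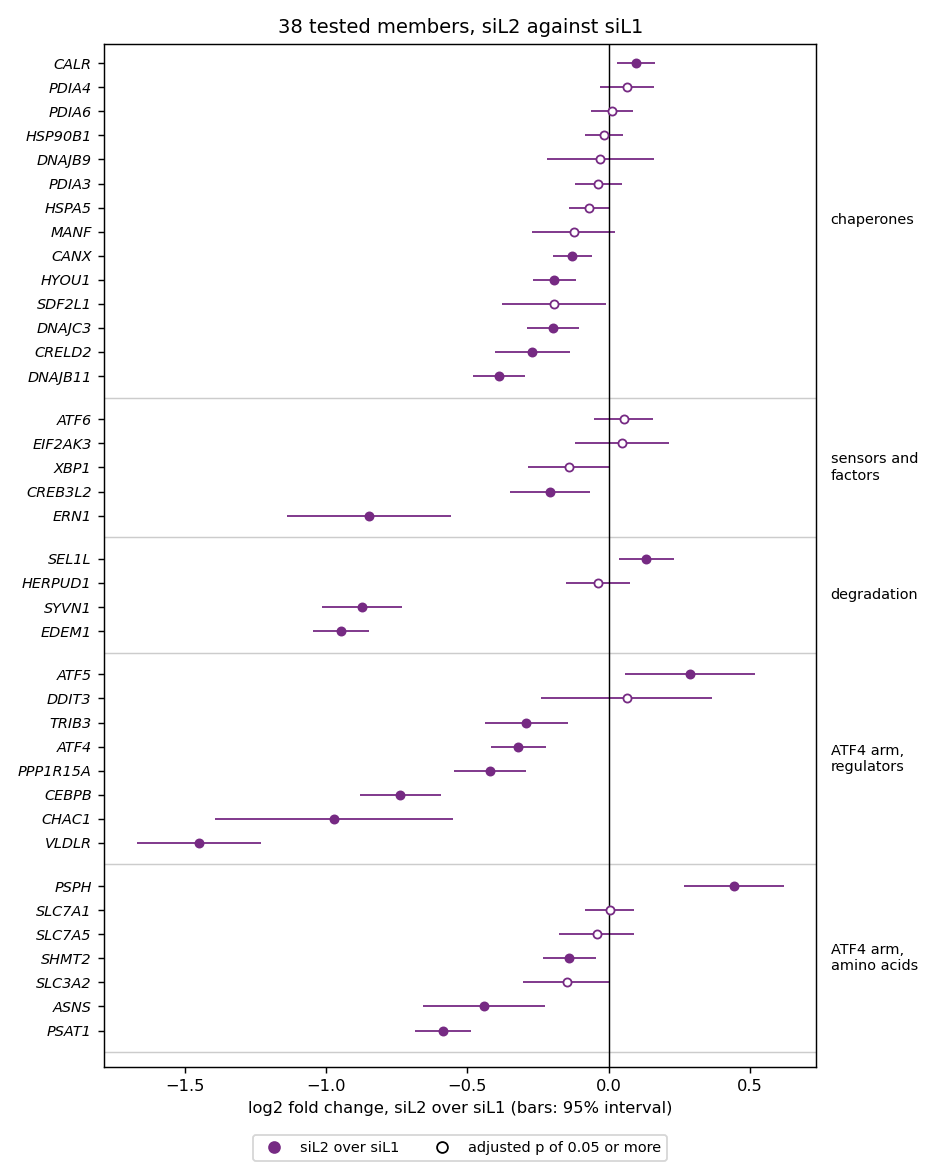
Log2 fold change of siL2 over siL1 with its 95% interval (x axis) for the 38 tested members, by role; open points had an adjusted p of 0.05 or more. VLDLR, at -1.45, lies furthest to the left, and PSPH, at 0.44, furthest to the right.

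The calls can be set beside the promoter elements. Of the 10 members with ERSE or ERSE-II, with siL2 CALR, CANX and PDIA6 rose and HYOU1 and CRELD2 fell, and with siL1 CALR, CANX and PDIA6 rose and 0 fell. HSPA5, XBP1 and HERPUD1, whose sequences are printed above, were among the 5 not called with siL2 and the 7 not called with siL1. Of the 6 members with CARE, with siL2 SLC7A1 rose and CREB3L2, ASNS and SLC3A2 fell, and with siL1 CHAC1 and SLC7A1 rose and CREB3L2 and SLC3A2 fell. Of all tested genes, 22.6% were higher and 23.3% lower with siL2, and 24.7% were higher and 25.7% lower with siL1. Whether members with an element differ from these shares was not tested. A match is a description of the letters in the window and not evidence of binding.

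Short sequences in the 3' UTRs were also counted, because an earlier look at these libraries had singled out 4 heptamers among genes that moved with 1 of the siRNAs; their presence in changed members is therefore not independent evidence. In the longest 3' UTR per gene of GENCODE v29, TACATTT or ACATTTA was present in 11 of 38 tested members (28.9%), against 35.1% of 11369 tested genes with a 3' UTR. Of these 11, with siL2 5 were higher, 5 lower and 1 not called, and with siL1 9 were higher, 0 lower and 2 not called. Of all 3991 tested genes with either heptamer, 31.3% were higher and 22% lower with siL2, and 33.6% were higher and 22.4% lower with siL1. GTTACAA was present in 4 members (10.5%, against 9.46% of genes), ERN1, EDEM1, SYVN1 and CEBPB; with siL2 3 of them were lower and 0 higher, and with siL1 2 were higher and 0 lower. Of all 1076 tested genes with GTTACAA, 18.2% were higher and 42.9% lower with siL2, and 29.8% were higher and 24.3% lower with siL1. ACAGAGC was present in 6 members (15.8%, against 17.8%), of which 2 were higher and 3 lower with siL2, and 2 higher and 1 lower with siL1. Of all 2022 tested genes with ACAGAGC, 26.9% were higher and 24.6% lower with siL2, and 26% were higher and 29.9% lower with siL1. Some sites in members with large differences between the siRNAs are printed here with the heptamer in capitals. VLDLR and ERN1 hold further sites, and CEBPB and PSAT1 hold sites that are not shown. CHAC1, which also differed strongly, holds none of the 4 heptamers.
VLDLR TACATTT: caaactactgTACATTTtttttcaagt
EDEM1 ACATTTA: tatctcttaaACATTTAttacaacaat
EDEM1 GTTACAA: tctttacagtGTTACAAattatttgct
SYVN1 GTTACAA: ttggttttgtGTTACAAgagttgttgg
ERN1 GTTACAA: aatgtatccaGTTACAAttgtacttgc

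Other genes of the ER and of the ATF4 response were taken from 5 further lists of named genes. Among 31 genes of ER translocation and export, with siL2 7 rose and 7 fell, and with siL1 21 rose and 3 fell, with medians of 0.00 and 0.18. The share called was 45.2% with siL2, against 45.8% of all tested genes, and 77.4% with siL1, against 50.4%. SRPR, the receptor for the signal recognition particle, had 63.0 and 63.2 CPM in siL2 libraries, 246 and 254 CPM in siL1 libraries, and 221 and 215 CPM in siControl libraries (log2 fold change -1.79 with siL2, adjusted p = 2.27e-11), and its partner SRPRB fell by 0.66 with siL2 (adjusted p = 1.24e-07). SEC24A, a coat subunit of ER export vesicles, had 45.7 and 43.8 CPM in siL2 libraries, 80.9 and 87.7 CPM in siL1 libraries, and 37.2 and 41.7 CPM in siControl libraries (1.10 with siL1, adjusted p = 5.50e-08). SEC63, a translocon subunit, rose with siL2 (0.68, adjusted p = 8.13e-08) and siL1 (0.49, adjusted p = 1.75e-06), and the retrieval receptor KDELR2 rose with siL1 (0.49, adjusted p = 2.51e-07).

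Of 30 other folding enzymes, with siL2 10 rose and 3 fell (43.3% called, against 45.8% of all tested genes). With siL1 14 rose and 2 fell (53.3%, against 50.4%). The oxidase ERO1L, which feeds oxidising power to the disulfide isomerases, rose with siL1 (0.42, adjusted p = 7.15e-06) and was not called with siL2 (0.11, adjusted p = 0.0631), and HSPA13 rose with siL2 (0.49, adjusted p = 1.15e-05) and siL1 (0.32, adjusted p = 0.000374). Of 25 tested genes of the degradation pathway, with siL2 9 rose and 7 fell (64% called), and with siL1 7 rose and 6 fell (52%). The retrotranslocation factor DERL1 rose with siL2 (0.46, adjusted p = 4.27e-06) and siL1 (0.73, adjusted p = 6.64e-08), and EDEM3, a relative of EDEM1, rose with siL2 (0.48, adjusted p = 9.19e-06) and siL1 (0.56, adjusted p = 2.08e-06). HERPUD2, a relative of HERPUD1, rose with siL2 (0.41, adjusted p = 0.000405) and fell with siL1 (-0.63, adjusted p = 2.17e-05). NGLY1 fell with siL2 (-0.63, adjusted p = 1.16e-06) and siL1 (-0.20, adjusted p = 0.00684), as did UBE2G2 (-0.25, adjusted p = 0.00149, and -0.45, adjusted p = 1.58e-05).

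Of 21 other sensors and signal transducers tested, with siL2 6 rose and 7 fell (61.9% called, against 45.8% of all tested genes). With siL1 5 rose and 11 fell (76.2%, against 50.4%). CREB3L1, the closest relative of CREB3L2, rose with siL1 (0.70, adjusted p = 6.36e-07) and was not called with siL2 (0.11, adjusted p = 0.146). PPP1R15B, the constitutive counterpart of PPP1R15A, rose with siL2 (0.43, adjusted p = 5.86e-05) and siL1 (0.37, adjusted p = 0.000176). EIF2S2 fell with siL2 (-0.23, adjusted p = 0.000505) and siL1 (-0.29, adjusted p = 7.86e-05), as did EIF2B3 (-0.37, adjusted p = 0.000159, and -0.20, adjusted p = 0.00929). ATF6B rose with siL2 (0.18, adjusted p = 0.00341) and fell with siL1 (-0.28, adjusted p = 0.000172). Of 27 other ATF4 and CHOP targets tested, with siL2 4 rose and 9 fell (48.1% called), and with siL1 8 rose and 8 fell (59.3%). MTHFD2, a mitochondrial folate enzyme, fell with siL2 (-0.66, adjusted p = 3.61e-07) and siL1 (-0.63, adjusted p = 4.96e-07). The glutamine transporter SLC1A5 fell with siL2 (-0.79, adjusted p = 1.86e-08) and was not called with siL1 (0.04, adjusted p = 0.442), and VEGFA rose with siL2 (0.28, adjusted p = 0.0247) and siL1 (0.85, adjusted p = 5.69e-06).

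The authors' deposited table gave an adjusted p under 0.05 to 16 members with siL2 (5 higher and 11 lower) and 18 with siL1 (13 higher and 5 lower), where 26.2% and 29% of all genes with a p there passed. All of these members were also called by the test used here, in both comparisons. For VLDLR the authors' deposited table gave fold changes of 0.734 with siL2 and 2.02 with siL1, for EDEM1 0.790 and 1.53, and for SLC7A5 0.580 and 0.600.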

How the data were processed

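RNA-seq of 6 libraries was analysed from 1 table of raw counts per gene symbol as the authors deposited it. Per the submitters' processing notes, TopHat 1.3.3, HTSeq and DESeq were used with build hg19; annotation release and strand setting were not given in the sources used here. The table also held the authors' fold changes (linear ratio, each siRNA divided by siControl) and the authors' adjusted p-values, which are printed only where named. With edgeR 4.0.16 in R 4.3.3, filterByExpr kept 13322 genes and dropped 10046; TMM scaling and glmQLFit followed, over all 6 libraries with group as the only term (3 residual degrees of freedom, common biological coefficient of variation 3.72%). The two-sided glmQLFTest gave each p, adjusted by Benjamini and Hochberg's method across the genes tested, with a threshold of 0.05. The step was tested on simulated data. CPM are counts over the library total; SDs are over the 2 libraries of a group, and floors cover counting error only. Members and lists were chosen with earlier results of these data known.

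Values in every library are given for HSPA5, XBP1, ATF6, ERN1, EIF2AK3, ATF4 and DDIT3 and for members called against siControl with a log2 change of at least 0.5; those of DNAJB11 and PSAT1 were added after their values were seen. From each other list, up to 4 called genes per comparison with the smallest p and a mean of at least 5 CPM could be named. Promoters and 3' UTRs were searched in Python 3.11.15 on GRCh38, joined by symbol. Exons of 9 members overlap another gene of the table in GENCODE v29. Alternatives were other scalings (DESeq2 1.42.0 size factors, upper quartile), filters and tests (DESeq2, limma-voom with limma 3.58.1), the replicate number as a block, only the 2 groups compared, and each library left out.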

Additional observations from a re-analysis of the deposited data

Results flagged for a closer look

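In 4 members the siRNAs had opposite effects, each past the threshold against the same siControl libraries, and the direct test of siL2 against siL1 also passed. The share of all tested genes with such opposite calls was not counted, so the number is a description only. The log2 fold change of siL2 over siL1 was -0.39 for DNAJB11, a cochaperone of BiP, -0.95 for EDEM1, the lectin of ER-associated degradation, -1.45 for VLDLR, the lipoprotein receptor, and -0.59 for PSAT1, the serine synthesis enzyme. With any 1 library left out, the direct difference kept its direction and its call for all 4; the call against siControl was lost for PSAT1 with siL2 in 3 of these runs and for VLDLR with siL2 in 1.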

How the results depend on the processing

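Of 588 counts recomputed under the alternatives, 548 stayed within 1.5 times the value reported and 40 did not, most of them counts of 1 or 2 genes. Of 1596 member values, 1488 kept their direction and their side of the threshold, 55 lost the call, 28 gained it and 25 turned direction; the 25 were uncalled before and after. The median change of all tested genes moved by less than 0.1 on the log2 scale under each scaling. Of 69 calls, 23 were lost when some 1 library was left out, which also lowers the residual degrees of freedom; the cause of the other shifts was not tested.

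Sensor genes higher with siL1 were 2 with the size factors of DESeq2, with upper quartile scaling and with the 1 CPM filter. With the DESeq2 test, sensor genes lower with siL2 were 1, and for siL2 against siL1 the members higher were 1, with 0 chaperones, 0 degradation genes and 0 ATF4 regulators. Same-numbered libraries deviated together (correlation of replicate differences 0.198 for siL2 and siControl, 0.141 for siL1 and siControl, and 0.133 for siL2 and siL1), but with 2 numbers they are not shown to be pairs. With the replicate number as a block, 18 members were lower and 8 higher with siL2, 8 lower and 22 higher with siL1, and 23 lower and 4 higher with siL2 than with siL1. Under that block ATF4 regulators lower with siL2 were 5, sensor genes were 2 higher and 2 lower with siL1, and chaperones lower with siL2 than with siL1 were 8. Calls gained under the block were PDIA4, CEBPB (adjusted p = 0.0165) and PPP1R15A (0.000823) with siL2; HSPA5 (0.00678), HYOU1, DNAJB9, ATF6 (0.0379), ERN1 (0.0243) and SYVN1 with siL1; and HSPA5, SDF2L1, MANF, XBP1 and SLC3A2 for siL2 against siL1; 0 calls were lost.

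With 1 library left out at a time, members higher with siL2 were 5 to 8, chaperones higher 3 to 5 and lower 1 to 3, sensors lower 1 to 2 and amino acid genes higher 0 to 1. With siL1, chaperones higher were 4 to 7 and lower 0 to 1, sensors higher 0 to 1 and amino acid genes higher 1 to 2. For siL2 against siL1, members higher were 1 to 4, sensors lower 1 to 3, and chaperones, degradation genes and ATF4 regulators higher 0 to 1 each.

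Values that turned direction were at most 0.151 in size on the log2 scale after turning. ASNS with siL1, -0.00058 as reported, was 0.0081 with DESeq2 size factors, 0.023 with upper quartile scaling, 0.0040 with the 1 CPM filter, 0.0089 with the DESeq2 test, 0.0035 with limma-voom, 0.00030 with the replicate block and 0.0085 with only the 2 groups compared. SLC7A1 for siL2 against siL1 was -0.0012 with upper quartile scaling. With 1 library left out, the ranges with siL2 were -0.011 to 0.023 for HSPA5, -0.16 to 0.035 for SDF2L1, -0.24 to 0.14 for DDIT3 and -0.37 to 0.094 for CHAC1. With siL1 they were -0.045 to 0.14 for XBP1, -0.31 to 0.078 for DDIT3 and -0.14 to 0.15 for ASNS. For siL2 against siL1 they were -0.021 to 0.16 for DDIT3, -0.046 to 0.056 for SLC7A1, -0.12 to 0.034 for SLC7A5, -0.093 to 0.033 for DNAJB9 and -0.029 to 0.13 for EIF2AK3. CHAC1, at 1.57 to 3.66 CPM, had the widest SE of the members in each comparison (0.194 to 0.219).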
